A study of Rattus norvegicus with 20 samples.

Results

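Fibrinogen, complement and other acute phase genes were followed in rat kidney as a set of 8: the 3 fibrinogen chain genes Fga, Fgb and Fgg, the protease inhibitor gene A2m, the haemoglobin-binding protein gene Hp, the lipopolysaccharide-binding protein gene Lbp, and the complement genes C3 and Cfb. They are 8 of the 34681 genes in the deposited table of bulk RNA sequencing, taken by gene symbol. Fgb and Fgg were chosen by their measured level in HS kidneys, among those farthest above Sham, so for all 8 genes HS against Sham is given as a description with no test. The study concerns rat models of acute kidney injury after trauma, and its 20 kidney libraries carry the disease labels RM (6 libraries), HS (5), RM-HS (3) and Sham (6). The labels do not spell out RM or HS, and they give no strain, age, sex, time after injury or drug, so the groups are named as labelled. The text on the design gives RM 5 libraries and the study 19, but 6 libraries are labelled RM here. No label says that each library is a different animal, so the p-values measure the spread between these libraries, part of which may be technical.

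Fibrinogen is the clotting protein that thrombin turns into fibrin. It is built from pairs of alpha, beta and gamma chains, which Fga, Fgb and Fgg encode side by side on the chromosome. Together with haptoglobin, alpha-2-macroglobulin, C3, factor B and lipopolysaccharide-binding protein it is made mainly by the liver, and in the acute phase response interleukin-6 family cytokines act through the receptor subunit gp130, STAT3 and C/EBP factors to raise its synthesis. Injured tubular epithelium of the kidney is also known to express fibrinogen and C3. In tissue RNA, a gene's level depends both on how many cells make it and on how much each cell makes, and the 2 cannot be told apart here.

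The libraries held between 45.05 and 109.9 M counted reads, of which 42.2 to 54.7% were mitochondrial. Levels are DESeq2-normalized read counts, which correct for depth and not for gene length. Sham 2 to Sham 5 stood apart from Sham 1 and Sham 6: the summed level of the podocyte marker list was 1014 to 3744 in the first 4, against 5776 and 5520 in Sham 1 and Sham 6 and 5492 to 8049 in the other 3 groups, so comparisons with Sham are also given against Sham 1 and Sham 6 alone. The letter that opens a library's name differed too: it was R in 1 RM library (RM 1), 3 HS libraries and all RM-HS and Sham libraries, and S in the other 5 RM and 2 HS libraries. Kidney markers were present throughout, but their levels moved with the groups. The proximal tubule list of 7 genes summed to 253240 to 331190 in RM, 222340 to 281780 in HS and 243760 to 380560 in RM-HS, against 153990 to 279930 in Sham, and 4 of the 7 were called higher and 2 lower in RM and in RM-HS than in Sham. The 2 principal cell markers summed to 5943 to 24004 in RM, 7130 to 12953 in HS and 3179 to 10288 in RM-HS, against 17979 to 58416 in Sham, with both called lower in RM and in RM-HS. The 2 thick ascending limb markers had median log2 fold changes of -1.37 in RM and -1.20 in RM-HS. The part of these shifts in the members' differences was not tested.

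Fga, Fgb and Fgg were far higher in all 3 injury groups than in Sham. In the order of their places on rn6 chromosome 2, the annotated spans were chr2:181986959-181994522 for Fgg (GSRG0015434), chr2:181997562-182013726 for Fga (GSRG0015435) and chr2:182027114-182038178 for Fgb (GSRG0016403), with gaps of 3039 and 13387 bases and 51220 bases from end to end. The row for Fga spans 16165 bases and that for Fgb 11065 bases, against 7404 and 6910 bases in RefSeq on GRCr8, whereas Fgg spans 7564 against 7444 bases, so reads counted for Fga and Fgb may come from a wider stretch than the RefSeq gene. The 250 bases before each start site are shown because the 3 genes moved together. They come from RefSeq on GRCr8, run 5′ to 3′ on the strand of the gene, and cover chr2:170671919-170672168 (plus strand) for Fga, chr2:170700876-170701125 (minus strand) for Fgb and chr2:170652833-170653082 (plus strand) for Fgg. Capitals mark CTGGGAA, the core of the response element through which interleukin-6 is known to act on acute phase genes in rat liver cells.
Fga: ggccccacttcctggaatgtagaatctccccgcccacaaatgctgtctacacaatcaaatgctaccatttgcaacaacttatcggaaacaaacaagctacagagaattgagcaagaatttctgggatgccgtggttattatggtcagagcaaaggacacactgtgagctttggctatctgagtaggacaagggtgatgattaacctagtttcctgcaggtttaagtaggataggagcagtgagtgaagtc
Fgb: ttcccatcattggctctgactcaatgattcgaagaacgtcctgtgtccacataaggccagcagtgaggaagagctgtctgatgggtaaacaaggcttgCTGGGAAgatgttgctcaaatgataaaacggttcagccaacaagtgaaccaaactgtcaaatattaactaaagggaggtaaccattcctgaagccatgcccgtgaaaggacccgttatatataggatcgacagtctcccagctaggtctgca
Fgg: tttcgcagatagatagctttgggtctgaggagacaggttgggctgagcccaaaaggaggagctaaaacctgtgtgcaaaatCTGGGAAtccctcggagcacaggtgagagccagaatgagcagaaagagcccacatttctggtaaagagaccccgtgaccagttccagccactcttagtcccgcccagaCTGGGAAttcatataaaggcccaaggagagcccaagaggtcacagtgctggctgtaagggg

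CTGGGAA, searched on both strands, was present once in the Fgb window (152 to 146 bases before the start) and at 2 places in the Fgg window (169 to 163 and 61 to 55 bases before the start), and the Fga window did not hold these letters. The same search found it in 9.33% of 27457 promoter windows of this length. TTCNNNGAA, the palindrome bound by STAT proteins, was in the windows of Fga (TTCCTGGAA, 242 to 234 bases before the start) and Fgb (TTCGAAGAA, 223 to 215 bases before), and in 7.52% of all windows. TTGCNNAA, a C/EBP-type sequence, was in the windows of Fga (144 to 137 bases before the start) and Fgb (141 to 134 bases before), and in 9.20% of all windows. None of these matches overlapped another. Of the other members only C3 had a promoter window in this table, with CTGGGAA at 71 to 65 and TTGCNNAA at 104 to 97 bases before the start. A match is a string of letters and not a mapped binding site.

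Fgb, the beta chain, ran from 1100 through a median of 7393 to 14014 normalized counts in RM and stood at 4860, 13662, 19644, 10540 and 6433 in HS. It stood at 11524, 7184 and 6275 in RM-HS, and ran from 44.1 through a median of 132 to 858 in Sham. No injured kidney came down to the level of the highest Sham kidney, although RM 1 at 1100 and Sham 2 at 858 were close. In reads, Fgb rested on at least 1039 in each injured kidney and on 29 to 998 in the Sham kidneys. Its log2 fold change was 5.40 ± 0.64 (SE; adjusted p = 1.1e-06, limma) in RM against Sham, which is 42.1-fold on the scale of value + 1, and 5.90 ± 0.78 (adjusted p = 9.8e-06) in RM-HS against Sham, or 59.7-fold. In HS, whose libraries chose the gene, the difference from Sham was 6.18 ± 0.67 with no test.

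Fgg, the gamma chain, ran from 438 through a median of 2233 to 3616 in RM and stood at 901, 2787, 6875, 2929 and 1209 in HS. The RM-HS kidneys held 5738, 2226 and 3423 and the Sham kidneys 15.1 to 310 with a median of 50.9. As for Fgb, every injured kidney was above every Sham kidney. The log2 fold change was 5.08 ± 0.70 in RM against Sham (adjusted p = 5.9e-06) and 6.13 ± 0.86 in RM-HS against Sham (adjusted p = 1.6e-05), and the HS difference was 5.50 ± 0.73.

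Fga, the alpha chain, had by far the most reads of the 8 genes. It ran from 8029 through a median of 58163 to 110360 in RM, stood at 47221, 90313, 137360, 82125 and 50765 in HS and at 79887, 45943 and 37736 in RM-HS, and ran from 984 through 2093 to 13812 in Sham. RM 1, at 8029, lay below Sham 2, at 13812, so the RM and Sham ranges met, whereas all HS and RM-HS kidneys were above every Sham kidney. The log2 fold change was 4.02 ± 0.58 in RM against Sham (adjusted p = 1.0e-05) and 4.36 ± 0.71 in RM-HS against Sham (adjusted p = 7.9e-05), and the HS difference was 4.90 ± 0.61.

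**Figure D1:**
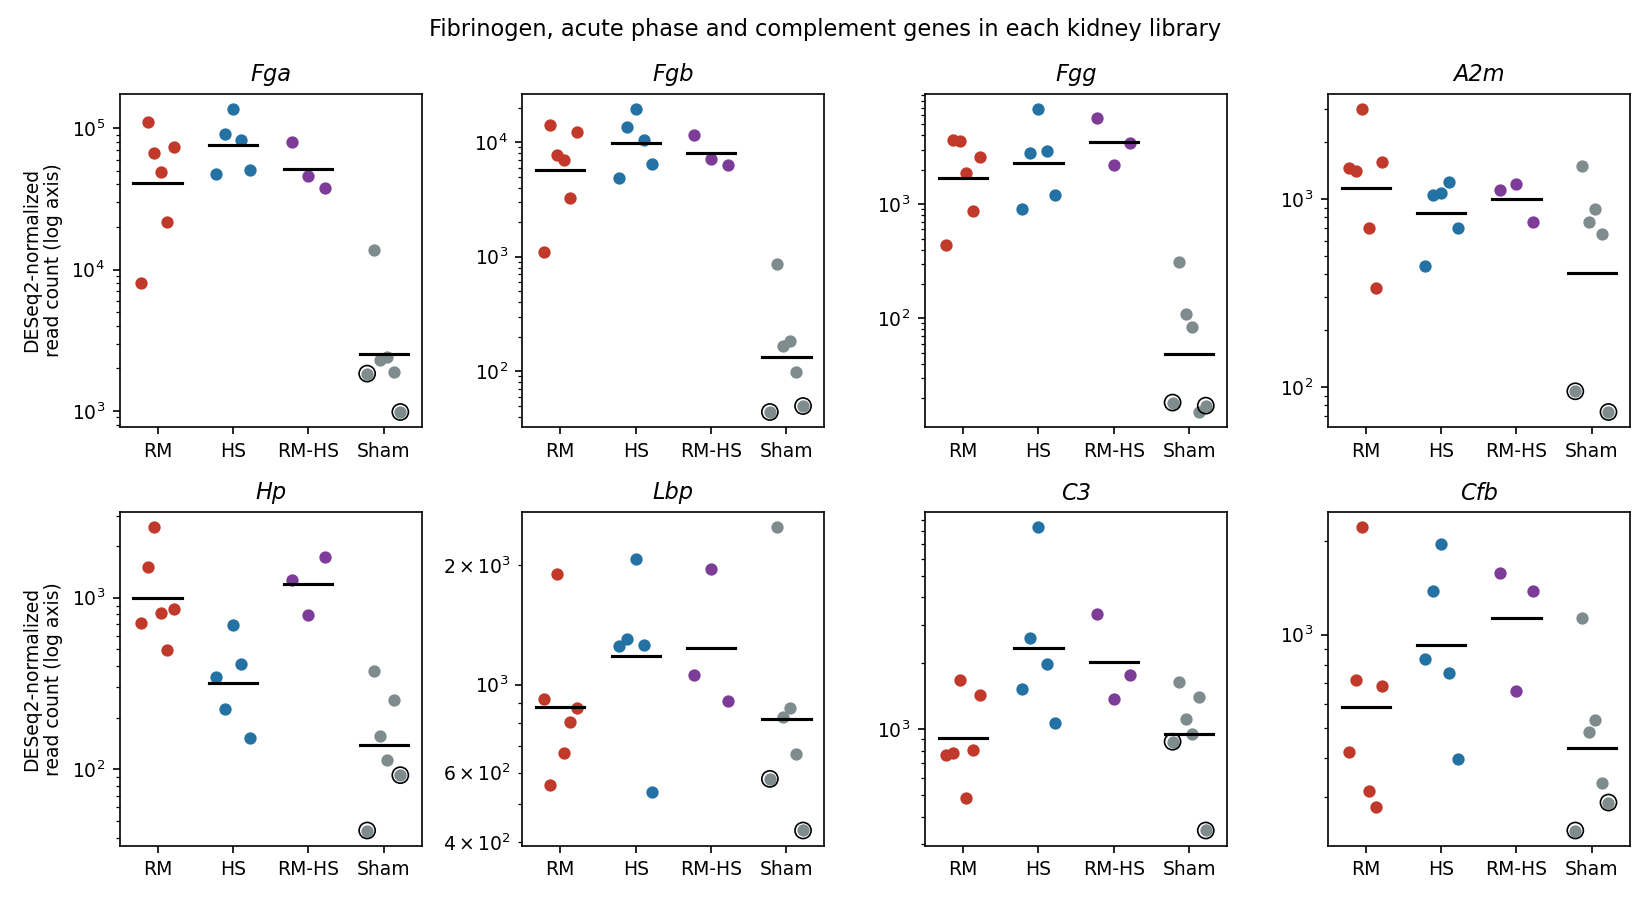
DESeq2-normalized read counts (log axis) of the 8 genes in each library of RM, HS, RM-HS and Sham; bars are means on the log scale and the ringed points are Sham 1 and Sham 6. The fibrinogen chains and Hp separate RM and RM-HS from Sham in all but the lowest RM library for Fga, while Lbp, C3 and Cfb overlap between groups.

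Across all 15954 genes tested, 26.2% were called higher and 26.8% lower in RM than in Sham at an adjusted p under 0.05, and 21.3% were called higher and 21% lower in RM-HS than in Sham. Against that, 4 of the 8 members (Fga, Fgb, Fgg and Hp) were called higher and 0 lower in each comparison. The members' median log2 fold change was 2.17 in RM and 2.25 in RM-HS, against -0.04 and -0.03 for all genes. Both comparisons use the Sham libraries that also served to choose Fgb and Fgg, so they are not independent of that choice. In HS, every library was above every Sham library for 3 of the 8 members, the fibrinogen chains, which is a property by which 2 of them were chosen, and the same held for 13.7% of all genes. That share was not counted for the other comparisons, so how common their separations without overlap are among all genes is not known here. Against Sham 1 and Sham 6 alone, the differences were larger: Fgb was 6.89 (adjusted p = 5.8e-06) in RM, 7.67 in HS and 7.39 (adjusted p = 1.5e-05) in RM-HS. Sham 1 and Sham 6 were the lowest Sham libraries for every member (Fgb 44.1 and 49.7) but Fgg, where Sham 5 was lower still. Larger differences against them, here and below, follow from those levels and do not test the calls. Among libraries whose names open with R, RM is RM 1 alone, so that its spread is assumed to be that of the other groups, and the RM calls were lost: the log2 fold change was 1.67 for Fga (adjusted p = 0.35), 3.03 for Fgb (adjusted p = 0.16), 3.13 for Fgg (adjusted p = 0.22) and 2.36 for Hp (adjusted p = 0.13). RM 1 was the lowest RM library for all 3 chains, and every value given below for RM in R-named libraries alone rests on this 1 library. The part of the name letter in this was not tested. All RM-HS and Sham libraries have the R letter, and there the 4 calls of RM-HS against Sham held. That comparison keeps the same libraries and log2 fold changes, with only the estimate of spread changed, so it cannot test the letter.

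**Figure D2:**
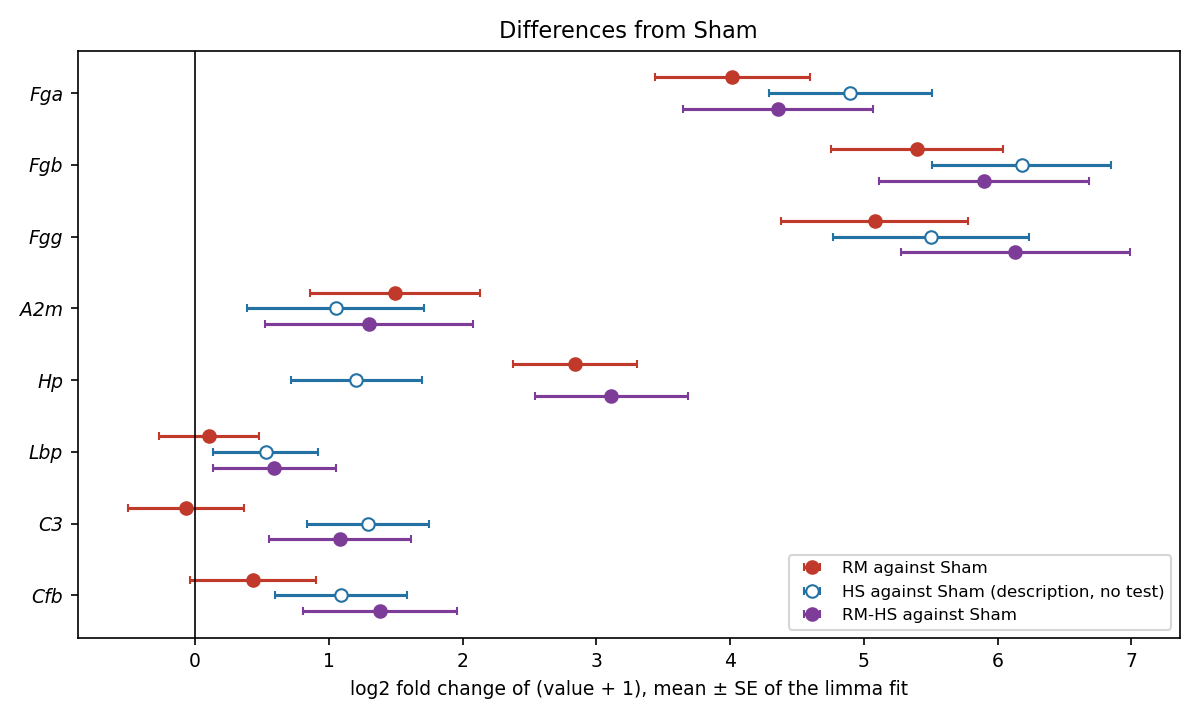
log2 fold change of value + 1 from Sham (dot) with its standard error from the limma fit (bar) for each gene in RM, HS (open circles, no test) and RM-HS. Fga, Fgb and Fgg lie between 4.02 and 6.18, Hp lies at 2.84 in RM and 3.11 in RM-HS but at 1.20 in HS, and C3 lies at -0.07 in RM but at 1.30 in HS and 1.08 in RM-HS.

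The 3 chains varied together from kidney to kidney. Over the 20 libraries, which differ in group, Pearson's r of log2 levels was 0.989 for Fga with Fgb, 0.981 for Fgb with Fgg and 0.966 for Fga with Fgg. With each group's mean taken out it was 0.957, 0.926 and 0.879, as a description over libraries that share their preparation. The proportion of the chains was less even. Fga over Fgb within a library was 6.01 to 8.64 in RM, 6.61 to 9.72 in HS and 6.01 to 6.93 in RM-HS, against 13.1 to 41.7 in Sham. Every Sham kidney therefore had relatively more Fga reads per Fgb read than any injured kidney. Fgb over Fgg showed no such gap, at 2.16 to 4.75 in RM, 2.86 to 5.40 in HS, 1.83 to 3.23 in RM-HS and 1.53 to 6.50 in Sham. These are ratios of reads and not of molecules, because the chains differ in length. Fgb and Fgg, but not Fga, were chosen by their distance above Sham in HS, so these ratios are not independent of that choice. In Sham the Fgb reads were few (29 to 998), and the Fga and Fgb rows span 2.18 and 1.6 times the RefSeq genes. The part of either in the ratios was not tested.

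**Figure D3:**
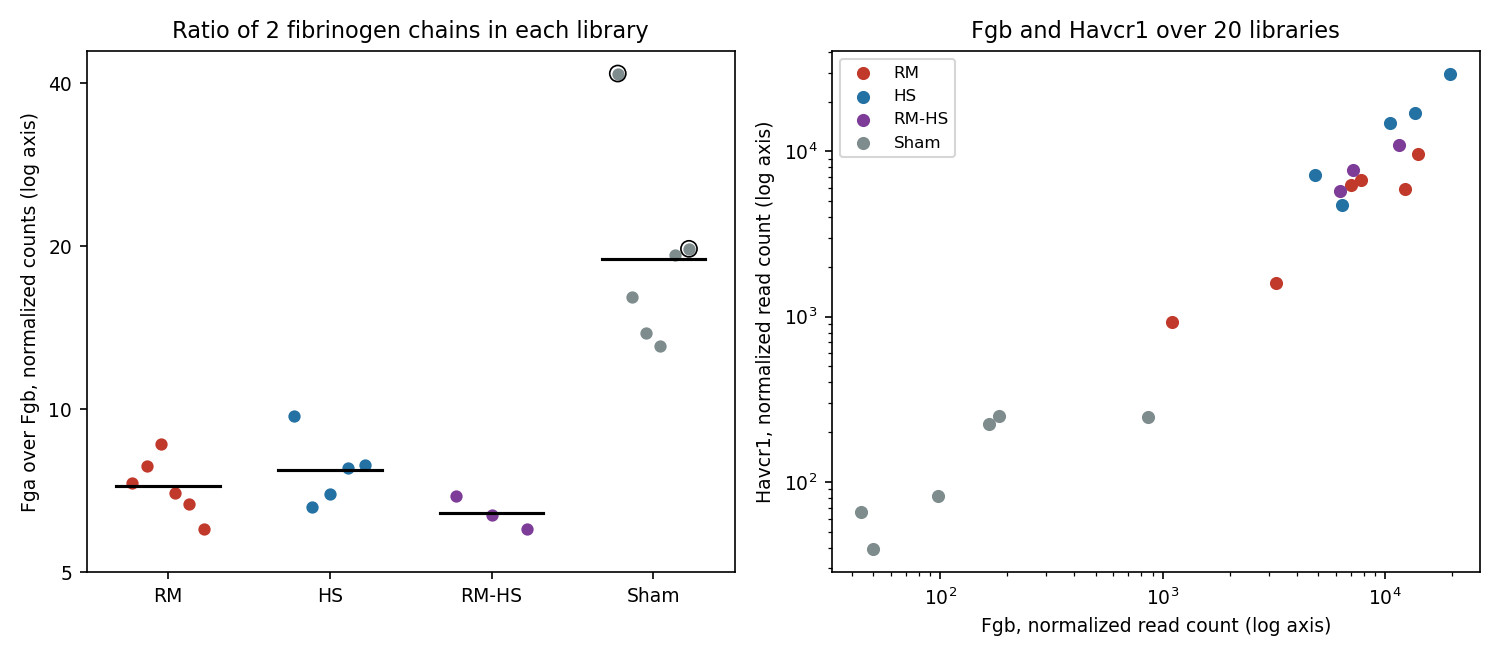
Left, the ratio of Fga to Fgb normalized counts in each library (log axis), with the log-scale mean as a bar and Sham 1 and Sham 6 ringed: injured kidneys lie between 6.01 and 9.72 and Sham kidneys between 13.1 and 41.7. Right, Fgb against Havcr1 normalized counts (both log axes) over 20 libraries, r = 0.978.

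Plrg1, Rbm46 and Lrat lie within 200 kb of the fibrinogen genes and passed the filter on low values. Plrg1, which encodes a splicing factor and lies just beyond Fgb, averaged 2094 in RM, 2196 in HS and 2114 in RM-HS, against 1745 in Sham, a log2 fold change of 0.26 in RM (adjusted p = 0.0016) and 0.27 in RM-HS (adjusted p = 0.0072). Rbm46 (1.24, adjusted p = 0.14, in RM and 1.46, adjusted p = 0.17, in RM-HS) and Lrat, the retinol-esterifying enzyme (0.64, adjusted p = 0.22, and -0.13, adjusted p = 0.87), did not pass. In RM and RM-HS the neighbours differed from Sham by log2 values of at most 1.46, against at least 4.02 for the fibrinogen genes. In HS, without a test, Rbm46 differed from Sham by 1.74.

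Hp encodes haptoglobin, which binds haemoglobin freed from red cells, and lies at chr19:42096196-42100806 (rn6, GSRG0014605). It ran from 495 through a median of 842 to 2576 in RM, stood at 345, 224, 695, 409 and 152 in HS and at 1272, 795 and 1723 in RM-HS, and ran from 44.1 through 136 to 376 in Sham. All RM and RM-HS kidneys were above every Sham kidney, whereas 3 of the 5 HS values lay within the Sham range. Hp rose in RM against Sham (log2 fold change 2.84 ± 0.47, adjusted p = 4.4e-05, limma) and in RM-HS against Sham (3.11 ± 0.57, adjusted p = 0.00025), and its HS difference from Sham was 1.20 ± 0.49 without a test. Against Sham 1 and Sham 6 alone these values were 3.94 (adjusted p = 9.7e-05) in RM, 4.21 (adjusted p = 0.00022) in RM-HS and 2.31 in HS.

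Hp also separated the groups with RM in their label from HS. It was higher in RM-HS than in HS (1.91 ± 0.59, adjusted p = 0.027), with no overlap, in a comparison where 10% of all genes were called higher and 10.6% lower. Hp was likewise higher in RM than in HS (1.64 ± 0.49, adjusted p = 0.020), where 11.1% were called higher and 12.6% lower, although HS 3 at 695 lay above RM 5. The ratio of Fgb to Hp was 1.53 to 14.2 in RM, 14.1 to 60.9 in HS, 3.64 to 9.06 in RM-HS and 0.389 to 2.28 in Sham. Either Hp call rests on few libraries. RM-HS against HS gave an adjusted p of 0.060 with the name letter as a covariate, 0.13 in R-named libraries alone, 0.058 without HS 2, 0.065 without HS 5, 0.078 without RM-HS 1 and 0.12 without RM-HS 3. RM against HS gave 0.65 in R-named libraries alone, 0.052 without HS 2 and 0.063 without HS 5.

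Neutrophils store haptoglobin in their granules, and neutrophil markers moved with Hp. The summed level of S100a8, S100a9, Cxcr2, Csf3r and Mmp8 was 5017 to 20508 in RM, 1929 to 8205 in HS, 7561 to 12620 in RM-HS and 897 to 4743 in Sham. All 5 were called higher in RM and in RM-HS than in Sham, where 26.2% and 21.3% of all genes were called higher. Against HS, 4 were called higher in RM and 2 in RM-HS, beside all-gene shares of 11.1% and 10%. In R-named libraries alone the RM-HS against HS count was 0. There RM against HS, resting on RM 1 alone, gave 0.47 for S100a8, 0.67 for S100a9, 1.42 for Cxcr2 and 1.89 for Mmp8. Leaving out 1 library lost the RM-HS against HS call of S100a9 in 6 of 8 fits and that of Cxcr2 in 1. The part of these cells in the Hp differences was not tested.

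A2m encodes alpha-2-macroglobulin, a broad protease trap and in the rat a major acute phase protein, at chr4:154309227-154359147 (rn6, GSRG0037359). It ran from 335 through a median of 1434 to 3024 in RM, stood at 440, 1045, 1080, 1236 and 700 in HS and at 1118, 1203 and 751 in RM-HS, and ran from 73.7 through 701 to 1495 in Sham. Sham 1 (94.98) and Sham 6 (73.7) were far below the other 4 Sham kidneys, which held 650 to 1495 and overlapped all injury groups. The log2 fold change was 1.49 ± 0.63 in RM against Sham (adjusted p = 0.053) and 1.30 ± 0.78 in RM-HS against Sham (adjusted p = 0.19), and in HS it was 1.05 ± 0.66. Against Sham 1 and Sham 6 alone, A2m passed at 3.76 in RM (adjusted p = 0.00015) and 3.57 in RM-HS (adjusted p = 0.00086). In HS the difference from these 2 was 3.32. The RM value also passed without RM 5 (adjusted p = 0.019), Sham 2 (0.017), Sham 3 (0.045) or Sham 4 (0.038). Neither RM-HS against HS (0.25 ± 0.80, adjusted p = 0.86) nor RM against HS (0.44 ± 0.66, adjusted p = 0.67) passed.

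Lbp encodes the plasma protein that hands bacterial lipopolysaccharide to CD14, at chr3:154786232-154812909 (rn6, GSRG0020023). It ran from 557 through a median of 839 to 1905 in RM, stood at 1251, 1299, 2074, 1258 and 535 in HS and at 1055, 1953 and 909 in RM-HS, and ran from 428 through 748 to 2494 in Sham. The highest value of all 20 kidneys was in Sham 2 and the groups overlapped. Its log2 fold change was 0.11 ± 0.37 in RM against Sham (adjusted p = 0.83; 95% confidence interval -0.68 to 0.89), a sign that turned to -0.04 with upper quartile scaling, and 0.59 ± 0.46 in RM-HS against Sham (adjusted p = 0.31; interval -0.36 to 1.55). The HS difference from Sham was 0.53 ± 0.39. Lbp differed from Sham 1 and Sham 6 alone by 0.82 (adjusted p = 0.16) in RM, 1.24 in HS and 1.31 (adjusted p = 0.058) in RM-HS. Lbp was the member that differed least from Sham in HS and in RM-HS.

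C3 encodes the complement protein on which all activation routes converge, at chr9:9721137-9747084 (rn6, GSRG0032097). It ran from 488 through a median of 795 to 1684 in RM, stood at 1529, 2597, 8335, 1993 and 1070 in HS and at 3369, 1379 and 1773 in RM-HS, and ran from 346 through 1035 to 1651 in Sham. The RM kidneys lay within or just beside the Sham range, while HS 3 held more than any other kidney. The log2 fold change was -0.07 ± 0.43 in RM against Sham (adjusted p = 0.91; 95% interval -0.97 to 0.84), with a sign that turned to 0.72 against Sham 1 and Sham 6 alone, and 1.08 ± 0.53 in RM-HS against Sham (adjusted p = 0.11). In HS it was 1.30 ± 0.46 with no test. C3 differed from Sham 1 and Sham 6 alone by 2.08 in HS and 1.87 (adjusted p = 0.051) in RM-HS. C3 was lower in RM than in HS by limma (-1.36 ± 0.46, adjusted p = 0.035), with overlapping ranges. That call was lost with the name letter as a covariate (-1.13, adjusted p = 0.13), in R-named libraries alone (-2.07, adjusted p = 0.26), without HS 3 (-0.91, adjusted p = 0.11), and without RM 1, RM 2, RM 4, RM 5, HS 2 or HS 4, at adjusted p-values of 0.052 to 0.082.

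Cfb encodes factor B, which carries the protease of the alternative pathway C3 convertase, at chr20:4536215-4542073 (rn6, GSRG0038125). It ran from 280 through a median of 552 to 2219 in RM, stood at 832, 1378, 1952, 755 and 399 in HS and at 1579, 660 and 1385 in RM-HS, and ran from 234 through 410.5 to 1135 in Sham. Sham 2, at 1135, was above most RM kidneys. The log2 fold change was 0.43 ± 0.47 in RM against Sham (adjusted p = 0.46) and 1.38 ± 0.58 in RM-HS against Sham (adjusted p = 0.061), and in HS it was 1.09 ± 0.50. Cfb differed from Sham 1 and Sham 6 alone by 1.17 (adjusted p = 0.17) in RM and 1.83 in HS. The RM-HS value passed without Sham 2 (1.66, adjusted p = 0.022) and without RM-HS 2 (1.77, adjusted p = 0.041). It also passed against Sham 1 and Sham 6 alone (2.12, adjusted p = 0.038), the lowest Sham kidneys for Cfb. At the same difference of 1.38 it passed in a fit of only these groups (adjusted p = 0.036) and in R-named libraries alone (adjusted p = 0.028). Those fits compare the same RM-HS and Sham libraries, so only the estimate of spread changed. C3 and Cfb varied together among libraries (r = 0.789, and 0.744 with group means taken out), at a ratio of C3 to Cfb of 0.759 to 2.89 in RM, 1.84 to 4.27 in HS, 1.28 to 2.13 in RM-HS and 1.20 to 4.22 in Sham.

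RM-HS against RM is the only comparison that shares no library with the choice of the members, and it asks whether the combination differed from RM. None of the 8 passed, where 0.395% of all genes were called higher and 0.689% lower. At an unadjusted p under 0.05 there was 1, C3, and edgeR and DESeq2 on the recovered reads also called 0 members. Fga differed by 0.34 (adjusted p = 0.86; 95% interval -1.14 to 1.82), Fgb by 0.50 (adjusted p = 0.81; -1.13 to 2.14) and Fgg by 1.05 (adjusted p = 0.58; -0.74 to 2.83) on the log2 scale. C3 differed by 1.15 (adjusted p = 0.30; 0.04 to 2.26) and Cfb by 0.95 (adjusted p = 0.44; -0.26 to 2.16). Hp differed by 0.27, Lbp by 0.49 and A2m by -0.19. The intervals reach 2.83 for Fgg and 2.26 for C3, so these 3 RM-HS libraries do not show that the groups are alike. By edgeR and DESeq2 the Fga difference had the other sign, at -0.019 and -0.017.

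For the fibrinogen chains, RM-HS and RM values are set beside HS only as description, because HS chose them. On the log2 scale RM-HS minus HS was -0.54 for Fga, -0.28 for Fgb and 0.63 for Fgg, and RM minus HS was -0.88, -0.78 and -0.42. All of these ranges overlapped. Cfb and Lbp also did not pass against HS, at 0.29 (adjusted p = 0.77) and 0.07 (adjusted p = 0.94) in RM-HS and at -0.66 (adjusted p = 0.36) and -0.42 (adjusted p = 0.47) in RM, and C3 in RM-HS differed from HS by -0.21 (adjusted p = 0.82).

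Single kidneys stood out across several members. Sham 2 was the highest Sham library for all 8 genes. Sham 6 was the lowest for Fga, A2m, C3 and Lbp, and Sham 1 for Fgb, Hp and Cfb. HS 3 was the highest HS library for 7 genes, with HS 4 highest for A2m. RM 2 was highest in RM for the 3 fibrinogen chains and RM 3 for the other 5.

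Among 11165 candidate genes, those most like Fgb by r of log2 levels over the 20 libraries were Fga (0.989), Fgg (0.981), Havcr1 (0.978), Tnfrsf12a (0.961) and Litaf (0.960). Havcr1 encodes KIM-1, a surface protein of injured proximal tubule cells. It averaged 5171 in RM, 14557 in HS and 8141 in RM-HS, against 151 in Sham, and with group means taken out its r with Fgb was 0.882. Tnfrsf12a, the receptor of the cytokine TWEAK, averaged 29090 in RM, 25674 in HS and 33172 in RM-HS, against 4408 in Sham. The other members were far down this list, with Hp at rank 1337 (0.741) and Lbp at rank 3457 (0.432). Most like C3 were Ccl19, a chemokine (0.827), Tdrd7 (0.826), Ikbkb, a kinase of the NF-kappaB pathway (0.820), Prr3 (0.814) and Bcl2l1, an inhibitor of apoptosis (0.804), with Cfb next at rank 6 and Fgb at rank 570 (0.507). These r values are descriptions over libraries from 4 groups.

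For the cytokine route to these genes, kidney RNA levels were read in a list of 29 tested genes of interleukin-6, interleukin-1 and STAT3 signalling. Such levels do not measure the activity of the route. In RM against Sham, 20 were higher and 4 lower with a median log2 fold change of 1.29, and in RM-HS against Sham also 20 and 4 with a median of 1.26. The shares over all genes were 26.2% higher and 26.8% lower in RM, and 21.3% and 21% in RM-HS. Il6 itself ran from 306 to 2183 in RM, from 3.20 to 115 in HS and from 114 to 320 in RM-HS, against 6.86 to 38.1 in Sham. It rose in RM (4.86 ± 0.65, adjusted p = 4.3e-06, limma) and in RM-HS (3.20 ± 0.80, adjusted p = 0.0032), and was higher in RM than in HS by 4.69 ± 0.68 (adjusted p = 6.2e-05). Lif, a related ligand, averaged 642 in RM, 56.5 in HS and 260 in RM-HS, against 12.8 in Sham, and was higher in RM than in HS by 3.56 (adjusted p = 9.5e-06). The HS kidneys had fibrinogen levels that overlapped those of RM and less Il6 and Lif RNA than RM. The part of these ligands in the fibrinogen levels was not tested. Il1rn, which encodes the interleukin-1 receptor antagonist, rose by 1.29 in RM and 2.05 in RM-HS, and Il11ra1, a receptor of interleukin-11, fell by 0.80 and 0.52.

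RNA of receptors and transcription factors of this route was read too. Osmr, the receptor of oncostatin M, rose by a log2 value of 2.80 in RM and 3.03 in RM-HS (adjusted p = 1.4e-10 and 2.9e-09). Il6st, which encodes gp130, rose by 1.69 and 1.59, and Stat3 by 1.122 and 1.18. Socs3, the feedback inhibitor that STAT3 induces, averaged 9234 in RM, 1634 in HS and 7354 in RM-HS, against 1045 in Sham, and was higher than in HS in both RM (2.85, adjusted p = 4.8e-05) and RM-HS (2.58, adjusted p = 0.0013). Cebpb rose by 2.09 and 2.20 and Cebpd by 1.52 and 1.76. In all, 13 of the 29 were higher and 1 lower in RM than in HS, and the same numbers held for RM-HS against HS. Among all genes, 11.1% were called higher and 12.6% lower in RM than in HS, and 10% and 10.6% in RM-HS than in HS. In R-named libraries alone the list counts were 6 higher and 1 lower in RM-HS against HS. There RM against HS, resting on RM 1 alone, gave log2 fold changes of 3.49 for Il6, 3.22 for Lif and 3.08 for Socs3. RM-HS against RM gave 0 calls in this list.

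**Figure D4:**
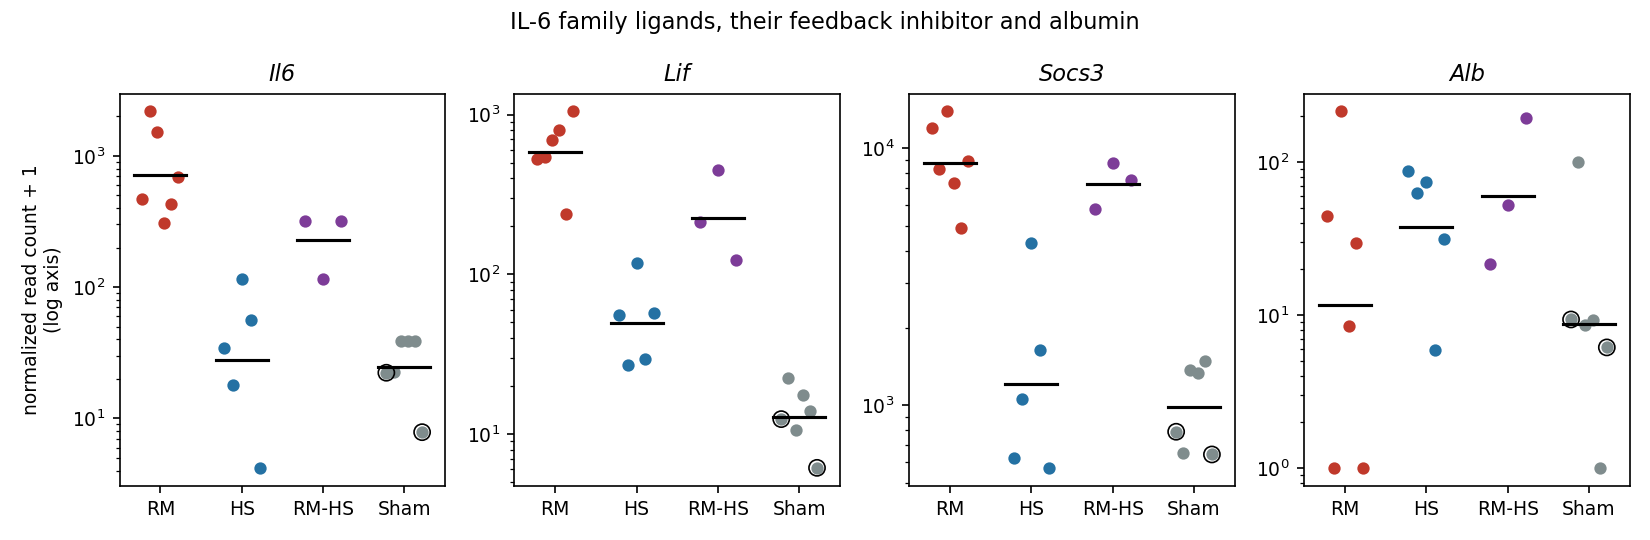
Normalized read count + 1 (log axis) of Il6, Lif, Socs3 and Alb in each library of RM, HS, RM-HS and Sham, with log-scale means as bars and Sham 1 and Sham 6 ringed. Il6, Lif and Socs3 have their highest means in RM, while Alb stays at 215 or below in every library.

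Albumin, the main secreted protein of hepatocytes, was low beside the fibrinogen genes. Its gene Alb ran from 0 to 215 in RM, from 4.90 to 87.2 in HS, from 20.7 to 195 in RM-HS and from 0 to 98.9 in Sham, against 1100 or more for Fgb in every injured kidney. Ahsg, Apoa1, Apoa2, Ttr and Tdo2, also typical of hepatocytes, did not exceed 162 in any library. The whole list of 15 hepatocyte markers summed to 17807 to 33305 in RM, 10979 to 19552 in HS, 25751 to 39341 in RM-HS and 7306 to 22589 in Sham, to which Cyp2e1, an enzyme of drug metabolism gave the most. Cyp2e1 was higher by 1.24 in RM and 1.79 in RM-HS than in all Sham kidneys, but against Sham 1 and Sham 6 alone it differed by 0.079 (adjusted p = 0.85) and 0.63 (adjusted p = 0.15), and the RM call was also lost with the name letter as a covariate (adjusted p = 0.063). Apoc3, an apolipoprotein, rose by 1.43 in RM and 1.53 in RM-HS. Cps1, an enzyme of the urea cycle, ran from 88.8 to 1656 in RM, from 21.5 to 134 in HS and from 11.4 to 86.1 in RM-HS, against 5.14 to 84.7 in Sham. It rose in RM (3.95, adjusted p = 0.00015) and was lower in RM-HS than in RM (-4.01, adjusted p = 0.036), a call lost on leaving out any of 6 of the 9 libraries, by edgeR (adjusted p = 0.061) and with the name letter (adjusted p = 0.57). Cyp2c11, whose close relatives may share its reads, averaged 3094 in RM, 608 in HS and 501 in RM-HS, against 607 in Sham. Of these 15, 5 were higher and 0 lower in RM than in Sham and 3 and 0 in RM-HS than in Sham. Among all genes 26.2% were called higher and 26.8% lower in RM, and 21.3% and 21% in RM-HS. The part of these hepatocyte genes in the members' values was not tested.

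Of 7 tested receptors that bind fibrinogen, 6 were called higher and 0 lower in RM and in RM-HS than in Sham, with medians of 1.14 and 1.01. The all-gene shares were 26.2% higher and 26.8% lower in RM, and 21.3% and 21% in RM-HS. Itgb3, the beta-3 integrin subunit, rose by 1.89 in RM and 1.88 in RM-HS, and Itgam, the alpha subunit of the leukocyte receptor Mac-1 that also binds a C3 fragment, rose by 1.94 and 1.93. Icam1 rose by 1.19 and 0.88 and Cdh5, the endothelial cadherin, by 1.14 and 1.66. Itgb2, the partner subunit of Itgam, differed by -0.31 (adjusted p = 0.065) and -0.39 (adjusted p = 0.064). In R-named libraries alone 6 receptors were called higher and 1 lower in RM-HS than in Sham. There RM, resting on RM 1 alone, differed from Sham by 2.58 for Itgb3, 1.84 for Itgam, 1.23 for Icam1 and 1.02 for Cdh5. With upper quartile scaling the counts were 6 higher and 1 lower in RM and in RM-HS. RM-HS against RM gave 0 calls.

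Of 16 coagulation factors tested, 5 were higher and 1 lower in RM than in Sham (median 0.14), and 3 and 1 in RM-HS than in Sham (median 0.08). The higher counts were near the all-gene shares called higher, 26.2% in RM and 21.3% in RM-HS. The lower counts were below the all-gene shares called lower, 26.8% and 21%. F3, which encodes tissue factor, the starter of clotting, averaged 4633 in HS and 1455 in Sham, and showed a rise of 3.49 in RM (adjusted p = 2.5e-08) and 3.90 in RM-HS (adjusted p = 2.8e-07). F3 was also higher than in HS, by 1.57 in RM (adjusted p = 0.0014, or 0.40 in R-named libraries alone) and 1.97 in RM-HS (adjusted p = 0.0016). Thbd, the anticoagulant thrombomodulin, rose by 1.30 and 1.67, and F5 fell by 1.76 and 1.45, a call that was lost in RM-HS against Sham 1 and Sham 6 alone (adjusted p = 0.085). Procr, the endothelial protein C receptor, rose by 1.17 in RM and differed by 0.28 (adjusted p = 0.60) in RM-HS. F2, which encodes prothrombin, differed by -0.28 (adjusted p = 0.38) and 0.07 (adjusted p = 0.88).

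Fibrinolysis genes act on the product of fibrinogen. Of 10 tested, 5 were higher and 2 lower in RM than in Sham (median 0.51), and 6 and 1 in RM-HS than in Sham (median 1.21). For all genes the shares were 26.2% higher and 26.8% lower in RM, and 21.3% and 21% in RM-HS. Plat, tissue plasminogen activator, rose by 1.51 in RM and 1.64 in RM-HS. Plaur, the urokinase receptor, rose by 3.01 and 2.71. Anxa2 and S100a10, the subunits of a plasminogen receptor, rose by 1.03 and 0.94 in RM and by 1.39 and 1.43 in RM-HS. Plau, urokinase, was the only gene of this list that was higher in RM-HS than in RM (0.94 ± 0.19, adjusted p = 0.029). That call was lost with the name letter as a covariate (adjusted p = 0.30) and without RM 3, RM 5, RM-HS 1 or RM-HS 2.

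Other complement components did not share a direction. Of 18 tested, 3 were higher and 4 lower in RM than in Sham (median 0.10), and 3 and 3 in RM-HS than in Sham (median -0.02), with 0 calls in RM-HS against RM. Shares over all genes were 26.2% higher and 26.8% lower in RM, and 21.3% and 21% in RM-HS, each against Sham. C6, a part of the membrane attack complex, averaged 238 in RM, 84.1 in HS and 88.3 in RM-HS, against 33.8 in Sham, a rise of 2.89 in RM (adjusted p = 3.0e-07) and 1.54 in RM-HS (adjusted p = 0.0029). C5 rose by 1.05 in RM (adjusted p = 0.0003) and passed in RM-HS (adjusted p = 0.0017), but against Sham 1 and Sham 6 alone it differed by 0.27 (adjusted p = 0.24) and 0.34 (adjusted p = 0.20). Colec12, a scavenger receptor of the collectin family, fell in RM-HS by 1.69 (adjusted p = 8.8e-05). Masp2, a protease of the lectin pathway, was lower in RM by limma (-0.81, adjusted p = 0.028), a call lost on leaving out any of 6 of the 12 libraries, with the name letter (adjusted p = 0.20) and against Sham 1 and Sham 6 alone (-0.34, adjusted p = 0.56), and it differed by 0.42 (adjusted p = 0.37) in RM-HS. Against Sham 1 and Sham 6 alone, the RM count was 3 higher and 0 lower and the RM-HS count 2 and 1.

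Among all genes, 26.2% were called higher and 26.8% lower in RM than in Sham, and 21.3% and 21% in RM-HS. Of 18 complement regulators and receptors, 10 were higher and 2 lower in RM than in Sham (median 0.53), and 8 and 1 in RM-HS than in Sham (median 0.66). With upper quartile scaling these counts were 8 and 3 in RM and 7 and 4 in RM-HS; that scaling shifts the all-gene median by -0.14 in RM and -0.13 in RM-HS. Cd55, which speeds the decay of C3 convertases, rose by 1.47 in RM and 1.52 in RM-HS. Clu, clusterin, rose by 1.64 in RM and by 1.07 in RM-HS, where the call was lost without RM-HS 2. C3ar1, the receptor of the C3a fragment, differed by -0.33 (adjusted p = 0.27) and -0.71 (adjusted p = 0.069). With R-named libraries alone, 0 of the 18 were called in RM against Sham and 7 higher and 1 lower in RM-HS against Sham. Cd93 was higher in RM-HS than in RM (0.87 ± 0.21, adjusted p = 0.0499), a call that was lost on leaving out any of 7 of the 9 libraries.

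Of 19 other acute phase proteins tested, 7 were higher and 2 lower in RM than in Sham (median 0.13), and 8 and 1 in RM-HS than in Sham (median 0.44). Over all genes these shares were 26.2% higher and 26.8% lower in RM, and 21.3% and 21% in RM-HS. Serpina3n, a serine protease inhibitor of the acute phase, averaged 2796 in RM, 4352 in HS and 2628 in RM-HS, against 274 in Sham, a rise of 4.45 (adjusted p = 0.00013) and 4.56 (adjusted p = 0.0012). Timp1, a metalloproteinase inhibitor, rose by 2.59 and 3.07. Lcn2, lipocalin 2, an iron-sequestering protein and a marker of tubular injury, rose in RM-HS by 5.18 (adjusted p = 0.014; lost without RM-HS 1, adjusted p = 0.057; 3.57 by edgeR) and differed by 2.13 (adjusted p = 0.18) in RM. Mt2A, a metallothionein, rose by 1.19 and 1.79. Apcs, serum amyloid P, rose by 3.24 and 4.29 against all Sham kidneys, but against Sham 1 and Sham 6 alone it differed by -0.31 (adjusted p = 0.30) in RM and 0.73 (adjusted p = 0.039) in RM-HS. Neither Apcs call held by edgeR (1.19, adjusted p = 0.22, in RM and 2.21, adjusted p = 0.061, in RM-HS). The same was true by DESeq2 (1.18, adjusted p = 0.21, and 2.20, adjusted p = 0.059). With the name letter as a covariate the RM call of Apcs was lost (adjusted p = 0.080). Serpina1, alpha-1-antitrypsin, averaged 161 in RM, 620 in HS and 151 in RM-HS, against 47.4 in Sham. Like Hp it was higher than in Sham, by 2.05 in RM (adjusted p = 0.00097) and 2.08 in RM-HS (adjusted p = 0.0058). It ran against Hp only in the comparisons with HS, where it was lower in RM (-2.09, adjusted p = 0.0037) and in RM-HS (-2.05, adjusted p = 0.018). Against HS, the RM-HS call was lost without RM-HS 1 or RM-HS 3 and in R-named libraries alone (adjusted p = 0.11). There the RM difference from HS, resting on RM 1 alone, was -0.94. Of 9 tested negative acute phase proteins, 1, the retinol carrier Rbp4, was lower in RM (-1.117) and in RM-HS (-1.21) than in Sham, and against Sham 1 and Sham 6 alone it did not pass (adjusted p = 0.18 in each).

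The partners of Lbp and the clearance receptors of Hp and A2m were also measured. Of 10 tested genes of lipopolysaccharide recognition, 5 were higher and 0 lower in RM than in Sham, and 3 and 0 in RM-HS than in Sham. Beside these counts, 26.2% of all genes were called higher and 26.8% lower in RM, and 21.3% and 21% in RM-HS. Cd14, to which Lbp passes its load, rose by 0.90 in RM (adjusted p = 0.020; lost without RM 3, Sham 1 or Sham 6) and 1.55 in RM-HS (adjusted p = 0.0030), and Tlr4, the lipopolysaccharide receptor, by 0.87 in RM (adjusted p = 0.0027), which was lost with the name letter as a covariate (adjusted p = 0.24) and against Sham 1 and Sham 6 alone (adjusted p = 0.12). Tlr4 in RM-HS differed by 0.29 (adjusted p = 0.40). Cd163, the macrophage receptor for haptoglobin bound to haemoglobin, averaged 80.4 in RM, 112.8 in HS and 104 in RM-HS, against 55.4 in Sham, and differed by 0.55 (adjusted p = 0.40) in RM and 1.13 (adjusted p = 0.17) in RM-HS. Lrp1, the receptor that clears alpha-2-macroglobulin, differed by -0.58 (adjusted p = 0.053) and -0.36 (adjusted p = 0.35). In R-named libraries alone, the counts higher and lower in RM against Sham were 2 and 0 for coagulation, 3 and 0 for fibrinolysis, 1 and 0 for complement components, 0 and 0 for other acute phase proteins and 1 and 0 for lipopolysaccharide recognition. With upper quartile scaling they were 4 and 2 for coagulation in RM against Sham, and in RM-HS against Sham 3 and 2 for coagulation, 6 and 2 for fibrinolysis and 3 and 1 for lipopolysaccharide recognition.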

How the data were processed

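Stranded mRNA libraries of frozen rat kidney were sequenced in pairs, as the labels' protocols state. FastQC 0.11.2, Picard 1.119, SAMtools 1.0, STAR, featureCounts (Subread 1.5.0), DESeq2 and build rn6 are named in the submitters' processing notes, and the file header names the FASTDB annotation. The deposited signal is the authors' read count per gene divided by a DESeq2 size factor. Multiplying back gave whole reads for 100% of values, within 0.1 read. The members and lists were chosen with earlier results of these data known.

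Rows with 10 or more in at least 3 libraries (15954) were tested with limma 3.58.1 (R 4.3.3), with a trend, on log2(value + 1), in 1 fit of 4 group means with Benjamini-Hochberg adjustment over all rows. This scale understates changes of low genes. An adjusted p with no tool named is from this fit. Alternatives were edgeR 4.0.16 and DESeq2 1.42.0 run on the whole reads, other scalings, pseudocounts and filters, and leaving libraries out.

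By rule, each list's genes with the smallest adjusted p in RM-HS against RM (up to 4) could be named, with partners of members, neighbours and defining hepatocyte markers. C5, Cd55, Clu, F2, F3, F5, Plaur, Apcs, Serpina1, Serpina3n, Timp1, Rbp4, Osmr, Il6st, Stat3, Socs3, Cebpb and Cebpd were chosen after their values were seen. Promoters come from RefSeq (GRCr8), and the set of promoter windows used held 4 of the 8 members. Some list genes are not reported here.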

Additional observations from a re-analysis of the deposited data

Results flagged for a closer look

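Sham 2 held 13812 normalized counts of Fga, against 984 to 2402 in the other 5 Sham kidneys, a gap that made it stand apart from its group. It was 1 of 24 gene and group pairs examined, and chance flags about 1 in 20. Sham 2 was also the highest Sham kidney for the other members and had the lowest podocyte marker sum, 1014, and its part in these values was not tested.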

How the results depend on the processing

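No paired analysis was possible because the labels give no replicate numbers. Fga, Fgb, Fgg and Hp stayed past the threshold in RM against Sham under 11 of 12 alternatives and in RM-HS against Sham under 12 of 12. The exception was R-named libraries alone, where RM is RM 1 alone. On leaving out 1 library, 4 to 5 members passed in RM. For RM-HS against Sham, the letter and R-named settings leave the log2 fold changes as they were, because all its libraries have the R letter. RM-HS against HS gave 1 member, and 0 with the name letter or R-named libraries alone (0 to 1 on leaving out 1 library); RM against HS gave 2, then 1 and 0 (0 to 2). Over all genes, RM against Sham gave 8455 calls, but 4551 with the letter, 766 in R-named libraries and 5250 against Sham 1 and Sham 6; RM-HS against Sham gave 6749, but 4347 against Sham 1 and Sham 6. RM-HS against RM gave 173, but 42 in a fit of these groups alone, 0 with the letter, 0 in R-named libraries, 499 by DESeq2 and 21 to 480 on leaving out 1 library. RM-HS against HS gave 3287, but 1203 in R-named libraries and 2015 to 3289 on leaving out 1; RM against HS gave 3791, but 195 in R-named libraries.

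Signs turned for members that did not pass. In RM against Sham, Lbp was -0.036 with upper quartile scaling, -0.024 by edgeR and -0.026 by DESeq2 (-0.12 to 0.43 on leaving out 1 library), C3 was 0.39 with the letter and 0.72 against Sham 1 and Sham 6 (-0.36 to 0.11), and Cfb was -0.047 in R-named libraries. In RM-HS against RM, Fga was -0.019 by edgeR and -0.017 by DESeq2 (-0.13 to 0.63), and A2m ran from -0.55 to 0.084. In RM-HS against HS, Fgb was 0.090 with the letter, Lbp was -0.15 with it, -0.28 in R-named libraries and -0.0049 by edgeR (-0.27 to 0.28), Cfb was -0.21 in R-named libraries (-0.013 to 0.68), and C3 ran from -0.58 to 0.24. The cause was not tested. Fgb reads in Sham (29 to 998) limit the precision of its fold changes.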
